A study of Homo sapiens with 6 samples.

Results

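Potassium channel genes were followed in T47D cells that had received an siRNA against HOTAIR-N or a control siRNA. T47D is an established human line from a luminal breast carcinoma that carries the estrogen receptor, and HOTAIR is a long RNA transcribed from the HOXC cluster that codes for no protein. Every gene symbol that begins with KCN followed by one of the letters A to K, M, N, Q, S, T, U or V was taken, without antisense or overlapping transcripts, which gave 102 of the 27968 genes in the deposited gene tables. The HOTAIR-N siRNA group and the control siRNA group held 3 libraries each from independent transfections of the same cell line, and total RNA was taken 48 hours after lipid-mediated transfection in both. Both groups thus carry the transfection itself, and each siRNA stands for its group alone, so that effects of a sequence and of its target cannot be told apart.

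Potassium channels let potassium ions pass down their gradient and so set the resting voltage of the cell membrane. Voltage-gated channels open on depolarization, calcium- and sodium-activated channels on a rise of the ion in the cell, inward rectifiers pass current more easily into the cell than out of it, and tandem-pore (K2P) channels give a leak that is open at rest. Auxiliary subunits change the gating or the delivery of a pore to the surface. In epithelial and breast cancer cells these channels are known for their part in membrane voltage, salt and fluid transport, cell volume and proliferation.

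The libraries held 31777001 to 36707169 expected counts, so that 1 CPM (counts scaled to library size) stood for 31.8 to 36.7 counts. HOTAIR, the targeted gene, stood at 34.7% of its control level (log2 fold change -1.53 ± 0.07 SE, adjusted p = 2.1e-09 by the quasi-likelihood test of edgeR). HOXC11 lies across it on the other strand, and the sources used here do not say whether reads were counted by strand. Luminal markers were present in both groups, with ESR1 at 28.3 ± 2.08 TPM (a level scaled to transcript length and depth) with the HOTAIR-N siRNA and 86.2 ± 2.55 TPM with the control siRNA and KRT8 at 4098 ± 306 and 4311 ± 379 TPM (SD, n = 3 each). The leukocyte and endothelial markers PTPRC, CD3E and PECAM1 did not exceed 0.04 TPM on average, and KRT5 averaged 0.017 and 0.023 TPM. Other markers of non-luminal cells were present. VIM averaged 1.31 TPM with the HOTAIR-N siRNA and 0.137 TPM with the control siRNA, a 9.03-fold rise at low counts. COL1A1 averaged 8.01 and 9.37 TPM in the same order.

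Of the 102 potassium channel genes, 45 had enough counts to be tested and 57 did not. Among the 45, 17 rose and 14 fell with the HOTAIR-N siRNA at an adjusted p under 0.05, and 14 were not called. The 31 called are 68.9% of those tested, near the 71.1% called among all 14919 tested genes, of which 36.2% rose and 34.8% fell. Of the 45, 18 (40.0%) were called and at least 2-fold apart, 9 higher and 9 lower, where 15.8% of all tested genes were, 8.91% higher and 6.84% lower. The tested channel genes also lay at a lower level, with a median of 1.21 CPM against 24.7 CPM over all tested genes. Of the 45, 33 exceeded the count floor of the filter in all 3 libraries of both groups. In 10 others only 1 group exceeded it throughout, and 9 of these 10 were among the 18 with at least a 2-fold difference, so that the filter itself favours them. They include KCND2, KCNJ10, KCNJ13, KCNN4 and KCNQ5-IT1, which passed through the HOTAIR-N group, and KCNAB1, KCNH7, KCNJ2 and KCNJ8, which passed through the control group. The median log2 fold change was 0.18 over the tested channel genes and 0.02 over all tested genes.

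**Figure D1:**
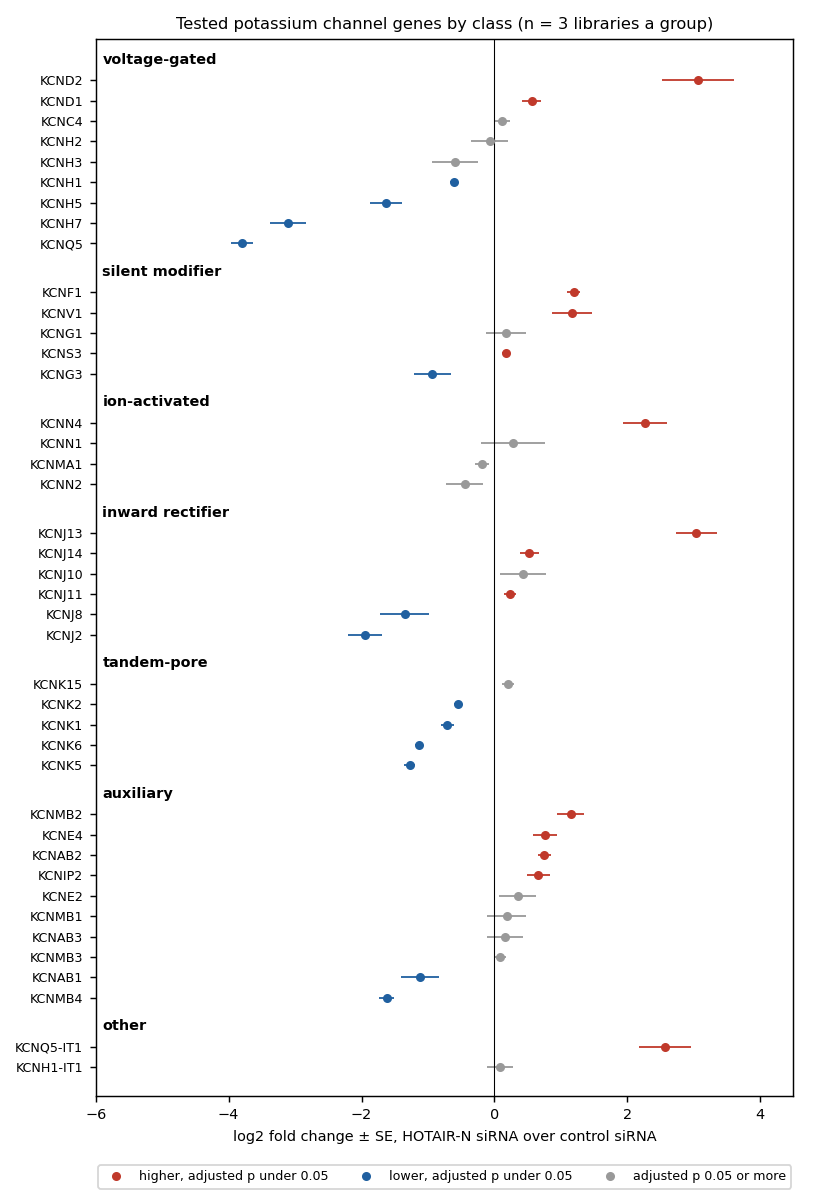
Log2 fold change (HOTAIR-N siRNA over control siRNA, horizontal axis) with its SE for 41 of the 45 tested genes, grouped by class, n = 3 libraries a group. Red points rose, blue points fell and grey points were not called; the tandem-pore class holds 4 blue points and no red one.

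The tandem-pore class had the highest summed level per length. Of 15 genes, 5 were tested, 4 fell and 1 was not called, where 34.8% of all tested genes fell. KCNK2 encodes TREK-1, a leak channel opened by stretch, lipids and warmth, and it had the highest level of any potassium channel gene in these cells. Its level was 108, 106 and 117 TPM in HOTAIR-N siRNA replicates 1, 2 and 3, against 154, 167 and 156 TPM in the control siRNA replicates. The highest HOTAIR-N library thus lay below the lowest control library. KCNK2 fell to 68.1% of control (log2 fold change -0.55 ± 0.05 SE, adjusted p = 7.4e-07). In bulk RNA, fewer cells that express a gene and less RNA per cell cannot be told apart. It made up 40.0% of the summed TPM of all 102 genes with the HOTAIR-N siRNA and 47.1% with the control siRNA.

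KCNK6, which encodes TWIK-2, was second in level in control cells. It had 32.9, 35.6 and 33.3 CPM with the HOTAIR-N siRNA, against 75.5, 72.0 and 77.0 CPM with the control siRNA. The groups were far apart relative to the spread within each, and KCNK6 fell to 45.3% of control (log2 fold change -1.14, SE 0.05, adjusted p = 3.0e-09). KCNK5 encodes TASK-2, a leak channel that closes in acid and serves cell volume regulation, and earlier work in T47D cells described it as induced by estrogen. It was measured at 5.41, 5.42 and 5.56 CPM with the HOTAIR-N siRNA, against 14, 12.1 and 13.5 CPM with the control siRNA. KCNK5 fell to 41.3% of control (log2 fold change -1.27, SE 0.08, adjusted p = 4.6e-08). The estrogen receptor gene ESR1 fell to 32.1% of control in the same libraries, and its part in the lower KCNK5 was not tested. KCNK1, which encodes TWIK-1, fell to 61.3% of control (adjusted p = 2.1e-05). KCNK15, a close relative of the acid-sensitive TASK channels that gives little current by itself, averaged 11.6 ± 1.17 CPM with the HOTAIR-N siRNA and 10.0 ± 0.785 CPM with the control siRNA (SD, n = 3 each) and was not called (log2 fold change 0.20, adjusted p = 0.065). KCNK15 was called higher without HOTAIR-N siRNA replicate 3 (log2 fold change 0.27, adjusted p = 0.018), when scaled by library totals alone (0.30, adjusted p = 0.013) and with upper-quartile scaling (0.26, adjusted p = 0.023). Summed over the class, TPM was 151, 152 and 159 in the HOTAIR-N libraries, against 234, 243 and 236 in the control libraries.

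**Figure D2:**
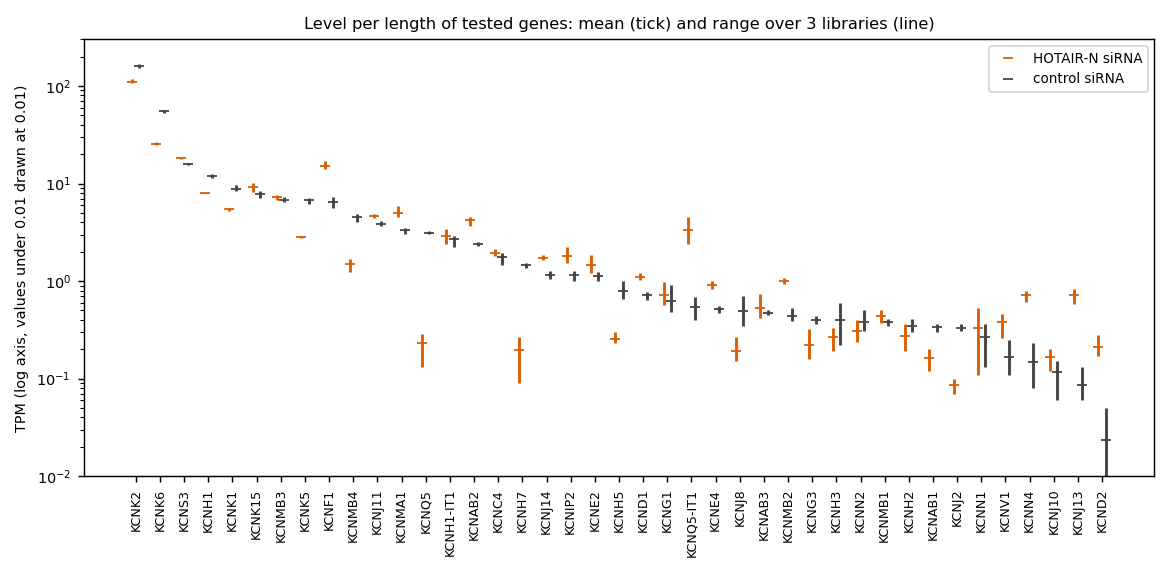
TPM on a log axis for 41 of the 45 tested genes in order of their mean in control cells, with HOTAIR-N siRNA in orange to the left of control siRNA in grey. Ticks are means and lines span the 3 libraries of a group. KCNK2 leads in both groups, and KCNQ5, KCNH7 and KCNJ2 show the widest gaps below control.

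Per length, 5 genes averaged at least 10 TPM in each group. In HOTAIR-N siRNA cells these included KCNK2, KCNK6 at 25.6, KCNS3 at 18.1 and KCNF1 at 15.3 TPM. In control cells they included KCNK2, KCNK6 at 55.3, KCNS3 at 15.7 and KCNH1 at 12.0 TPM. The libraries of neighbouring genes in these orders did not overlap within a group. Another 17 tested genes averaged from 1 to 10 TPM in each group. At the lower end most neighbours in the order could not be told apart by their range over libraries.

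Voltage-gated pore subunits split evenly. Of 30 genes, 13 were tested, 5 rose, 5 fell and 3 were not called, where 36.2% of all tested genes rose and 34.8% fell. The Shaw-type gene KCNC4, whose channels (Kv3.4) inactivate quickly, was not called (log2 fold change 0.11, adjusted p = 0.43). KCNC1, which encodes Kv3.1 of fast-firing neurons, was too low to pass the filter, at 14, 19 and 9 counts with the HOTAIR-N siRNA, against 3, 2 and 4 counts with the control siRNA. Without the filter KCNC1 was called higher (log2 fold change 2.17, adjusted p = 0.00051).

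KCNQ5 had the largest fall of any potassium channel gene. It encodes Kv7.5, a subunit of the slow M-current that holds membranes near rest. Its CPM was 0.439, 1.00 and 0.927 in HOTAIR-N siRNA replicates 1, 2 and 3, against 10.8, 11.3 and 10.7 in the control siRNA replicates. Every HOTAIR-N library stood far below every control library. KCNQ5 fell to 7.18% of control (log2 fold change -3.80, SE 0.17, adjusted p = 1.9e-09), and all its reads were given to 1 of its 5 annotated transcripts, NM_001160130. KCNQ1 was too low to test, at 2 counts over the HOTAIR-N libraries and 9 over the control libraries, and KCNQ3 had 0 counts in all 6.

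KCNQ5 holds a 7-mer in the 3′ UTR, GACCAAT, which had been picked in earlier work on these same fold changes because its carriers had low ones. It is shown here because it marks the gene with the largest fall, and its place among lower genes follows in part from that choice. Of 43 tested channel genes with a 3′ UTR in GENCODE release 29, 4 (9.30%) hold the 7-mer in their longest one, against 7.08% of 13249 tested genes. The median length of these UTRs was 2203 bases for the channel genes and 1606 bases for tested genes. The sites, 5′ to 3′ with the 7-mer in capitals and up to 11 bases on each side, are as follows for KCNQ5 and KCNC4.
KCNQ5: aggcacaaattGACCAATtctcatgccat
KCNC4: agaggccagaaGACCAATagataaaaaat
Of these carriers KCNQ5 fell and KCNC4 was not called. KCNH7 and KCNJ2, which also fell, do not hold the 7-mer.

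Of the ether-a-go-go family (KCNH), 5 genes were tested. KCNH1, KCNH5 and KCNH7 fell and KCNH2 and KCNH3 were not called, where 34.8% of all tested genes fell. KCNH7, which encodes Kv11.3 of the ERG group and passed the filter through the control group alone, had 0.110, 0.274 and 0.377 CPM with the HOTAIR-N siRNA, against 2.27, 2.00 and 2.29 CPM with the control siRNA. The highest HOTAIR-N library lay far below the lowest control library. KCNH7 fell to 11.6% of control (log2 fold change -3.11, SE 0.27, adjusted p = 6.8e-07). It shares exon sequence with GCA on the opposite strand, which was not called (log2 fold change -0.07, adjusted p = 0.27). KCNH5, which encodes the neuronal EAG2, had 0.494, 0.456 and 0.608 CPM with the HOTAIR-N siRNA, against 1.40, 2.08 and 1.37 CPM with the control siRNA, and fell to 32.3% of control (adjusted p = 5.9e-05). KCNH1 encodes EAG1, a brain channel that many tumours also express. It stood at 33.8, 34.5 and 33.3 CPM with the HOTAIR-N siRNA, against 51.4, 53.8 and 49.4 CPM with the control siRNA. With little spread in either group it fell to 65.7% of control (log2 fold change -0.61, SE 0.05, adjusted p = 7.6e-07). KCNH2, which encodes the cardiac HERG channel, had a log2 fold change of -0.07 (SE 0.28, adjusted p = 0.84). KCNH3 had one of -0.59 (SE 0.34, adjusted p = 0.14), and without control siRNA replicate 2 it was called lower (log2 fold change -0.88, adjusted p = 0.019).

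Among the A-type genes of the KCND group, KCND2, which encodes Kv4.2, passed the filter through the HOTAIR-N group alone. It had 0.467, 0.517 and 0.782 CPM with the HOTAIR-N siRNA, against 0.140, 0.0596 and 0 CPM with the control siRNA. In counts these were 61 over the HOTAIR-N libraries and 7 over the control libraries. It rose 8.36-fold (log2 fold change 3.06, SE 0.54, adjusted p = 0.00027), and the size is loose, with log2 fold changes of 4.17 without control siRNA replicate 1 and 2.49 without control siRNA replicate 3. KCND1, which encodes Kv4.1, rose 1.48-fold (adjusted p = 0.0038), and KCND3 had too few counts to be tested.

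Silent modifiers form no working channel alone but join other voltage-gated subunits and change their gating. Of 10 genes, 5 were tested, 3 rose, 1 fell and 1 was not called, where 36.2% of all tested genes rose and 34.8% fell. KCNF1, which encodes Kv5.1, had 16.8, 19.0 and 15.9 CPM with the HOTAIR-N siRNA, against 8.29, 6.43 and 7.85 CPM with the control siRNA. The lowest HOTAIR-N library was well above the highest control library, and KCNF1 rose 2.29-fold (log2 fold change 1.19, SE 0.10, adjusted p = 4.5e-07). KCNV1, which encodes Kv8.1, was at 1.67, 1.55 and 0.927 CPM with the HOTAIR-N siRNA, against 0.392, 0.536 and 0.916 CPM with the control siRNA. Replicate 3 of each group nearly met, and KCNV1 rose 2.25-fold (adjusted p = 0.0045). KCNS3, which encodes Kv9.3, had 20.8, 21.4 and 21.0 CPM with the HOTAIR-N siRNA, against 18.1, 19.2 and 18.6 CPM with the control siRNA, and its rise of 1.13-fold was small (adjusted p = 0.018). That call was lost without HOTAIR-N siRNA replicate 2, control siRNA replicate 1 or control siRNA replicate 3 (adjusted p = 0.053, 0.080 and 0.058). KCNG3 fell to 52.3% of control (adjusted p = 0.0093), and KCNG1 was not called (log2 fold change 0.18, adjusted p = 0.61). Per length, the modifiers KCNF1 and KCNS3 stood at 15.3 and 18.1 TPM with the HOTAIR-N siRNA and at 6.52 and 15.7 TPM with the control siRNA.

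**Figure D3:**
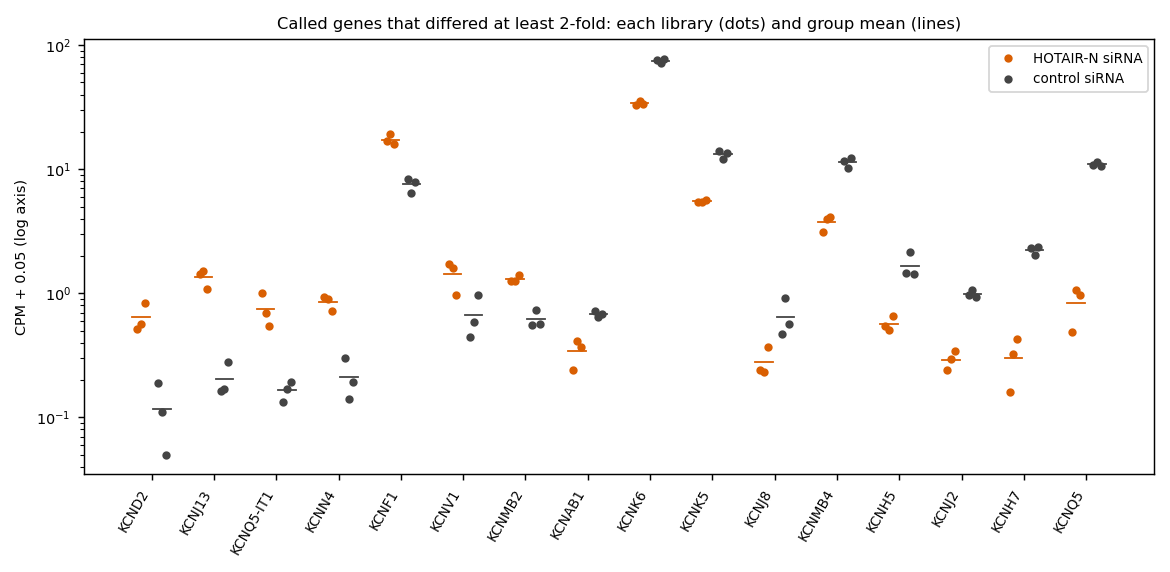
CPM plus 0.05 on a log axis in each library for 16 of the 18 called genes that differed at least 2-fold, in order of fold change, with HOTAIR-N siRNA in orange to the left of control siRNA in grey. Dots are libraries and lines are group means. The groups do not overlap for any of the 16 genes drawn, which follows in part from the choice of called and 2-fold different genes. Among all tested genes 73.4% do not overlap. The groups of KCNV1 come closest, at 0.927 CPM in the lowest HOTAIR-N library and 0.916 CPM in the highest control library.

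Of 8 genes grouped by symbol as calcium- and sodium-activated pore subunits, 4 were tested, 1 rose and 3 were not called. Of all tested genes 71.1% were called. KCNN4 encodes KCa3.1, the intermediate-conductance channel of epithelia, lymphocytes and red cells. It had 0.878, 0.852 and 0.666 CPM with the HOTAIR-N siRNA, against 0.252, 0.0893 and 0.143 CPM with the control siRNA. KCNN4 passed the filter through the HOTAIR-N group alone, which favours a gap between the groups. All HOTAIR-N libraries lay above all control libraries, and KCNN4 rose 4.82-fold (log2 fold change 2.27, SE 0.33, adjusted p = 6.3e-05). The small-conductance genes KCNN1 and KCNN2 had log2 fold changes of 0.28 (SE 0.48, adjusted p = 0.62) and -0.45 (SE 0.28, adjusted p = 0.19). KCNMA1, the large-conductance BK channel gene and the most abundant of this class, had 4.34, 4.29 and 4.95 CPM with the HOTAIR-N siRNA, against 5.35, 5.03 and 5.07 CPM with the control siRNA. It was not called (log2 fold change -0.19, SE 0.10, adjusted p = 0.11), though the groups did not overlap, as for 33 of the 45 tested channel genes (73.3%) and 73.4% of all tested genes. Without HOTAIR-N siRNA replicate 3 it was called lower (log2 fold change -0.26, adjusted p = 0.0499). Its deposited TPM ran the opposite way, at 4.68, 5.88 and 4.55 with the HOTAIR-N siRNA, against 3.48, 3.05 and 3.47 with the control siRNA. Much of that level was assigned to NM_001271522, a transcript of 868 bases, which took 50 ± 20.3% of the gene with the HOTAIR-N siRNA and 38.8 ± 5.59% with the control siRNA (SD, n = 3 each). Its counts were not called (adjusted p = 0.21). NM_002247, of 6103 bases, took 12.5 ± 9.58% with the HOTAIR-N siRNA and 33.6 ± 5.46% with the control siRNA. The counts of NM_002247 were not called either (adjusted p = 0.30).

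Inward rectifiers changed in both directions, with 6 of 16 genes tested, 3 higher, 2 lower and 1 not called. Of all tested genes 36.2% rose and 34.8% fell. KCNJ13 encodes Kir7.1, found in transporting epithelia such as retinal pigment epithelium and choroid plexus. It had 1.37, 1.46 and 1.04 CPM with the HOTAIR-N siRNA, against 0.112, 0.119 and 0.229 CPM with the control siRNA. Each HOTAIR-N library was several times the highest control library, and KCNJ13 rose 8.24-fold (log2 fold change 3.04, SE 0.30, adjusted p = 2.2e-06). KCNJ13 passed the filter through the HOTAIR-N group alone, which favours such a gap. It shares exon sequence on the opposite strand with GIGYF2, which fell (log2 fold change -0.36, adjusted p = 1.9e-05).

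KCNJ2, which encodes Kir2.1, the classical rectifier of heart and muscle, had 0.192, 0.243 and 0.290 CPM with the HOTAIR-N siRNA, against 0.925, 1.01 and 0.888 CPM with the control siRNA. In counts these were 25 over the HOTAIR-N libraries and 98 over the control libraries. KCNJ2 fell to 25.9% of control (log2 fold change -1.95, SE 0.25, adjusted p = 2.1e-05), having passed the filter through the control group alone. KCNJ8 and KCNJ11 encode the pores of ATP-sensitive channels, which need a sulfonylurea receptor to reach the surface. KCNJ8, which encodes Kir6.1, had 0.192, 0.183 and 0.319 CPM with the HOTAIR-N siRNA, against 0.420, 0.864 and 0.516 CPM with the control siRNA, and fell to 39.1% of control (adjusted p = 0.0057), having passed the filter through the control group alone. KCNJ11, which encodes Kir6.2, had 8.26, 7.67 and 7.5 CPM with the HOTAIR-N siRNA, against 7.17, 6.31 and 6.42 CPM with the control siRNA. Its rise of 1.18-fold was small (adjusted p = 0.030). The call was lost without HOTAIR-N siRNA replicate 1 or 2 (adjusted p = 0.13 and 0.053) and without control siRNA replicate 2 or 3 (adjusted p = 0.082 and 0.097). KCNJ14, which encodes Kir2.4, had 2.42, 2.37 and 2.61 CPM with the HOTAIR-N siRNA, against 1.85, 1.73 and 1.55 CPM with the control siRNA, and rose 1.44-fold (adjusted p = 0.0045). KCNJ10 was not called (log2 fold change 0.43, adjusted p = 0.29).

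The promoters of KCNJ13 and KCNQ5 are shown as those of one of the largest rises and of the largest fall, from RefSeq on GRCh38.p14, with 250 bases before and 50 after the start, 5′ to 3′ on the gene's strand and CG pairs in capitals.
KCNJ13, chr2:232776516-232776815, minus strand: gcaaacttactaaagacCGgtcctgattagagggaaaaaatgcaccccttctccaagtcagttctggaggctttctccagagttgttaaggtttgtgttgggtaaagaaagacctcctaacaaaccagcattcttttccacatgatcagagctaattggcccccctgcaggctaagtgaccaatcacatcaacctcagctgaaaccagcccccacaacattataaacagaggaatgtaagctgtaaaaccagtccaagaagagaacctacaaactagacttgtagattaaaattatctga
KCNQ5, chr6:72621814-72622113, plus strand: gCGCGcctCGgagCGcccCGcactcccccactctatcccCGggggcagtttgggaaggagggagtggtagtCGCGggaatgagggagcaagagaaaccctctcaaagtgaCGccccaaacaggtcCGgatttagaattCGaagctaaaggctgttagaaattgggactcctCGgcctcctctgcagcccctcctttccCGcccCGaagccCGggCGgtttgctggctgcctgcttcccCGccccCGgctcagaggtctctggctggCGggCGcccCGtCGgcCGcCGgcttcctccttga
The KCNJ13 promoter has 1 CG pair and a TATAAA that begins 30 bases before the start. The KCNQ5 promoter has 24 CG pairs and no TATAAA on either strand. The median is 14 CG pairs over all 35116 promoters and 18.5 over the promoters of tested channel genes. Promoters matched 32 of the 45 tested channel genes. TATAAA on either strand was found in 6 of their 50 promoters, near the 11.5% of all promoters that hold it, and the 6 belong to KCNAB1, KCNH2, KCNJ13, KCNJ14, KCNK1 and KCNMB3. Those 6 genes include 2 that rose, 2 that fell and 2 that were not called. An interferon-response motif (GAAA, any 2 bases, GAAA) was found on either strand in 1 of the 50, that of KCNMB3, and in 3.57% of all promoters, and a palindromic estrogen-response motif (GGTCA, any 3 bases, TGACC) in 0 of the 50 and 0.057% of all promoters. These are matches of letters within 300 bases.

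Auxiliary subunits also went both ways, with 10 of 17 genes tested, 4 higher, 2 lower and 4 not called. Of all tested genes 36.2% rose and 34.8% fell. The BK beta subunits differed among themselves. KCNMB4, a neuronal subunit that slows the opening of BK channels, had 3.05, 3.93 and 4.06 CPM with the HOTAIR-N siRNA, against 11.6, 10.2 and 12.2 CPM with the control siRNA. The groups were well apart, and KCNMB4 fell to 32.4% of control (log2 fold change -1.62, SE 0.12, adjusted p = 9.9e-08). KCNMB2, which inactivates the channel, had 1.21, 1.22 and 1.36 CPM with the HOTAIR-N siRNA, against 0.504, 0.685 and 0.516 CPM with the control siRNA, and rose 2.22-fold (adjusted p = 0.00028). KCNMB3 was the beta subunit with the highest level per length in both groups, at 7.32 TPM with the HOTAIR-N siRNA and 6.74 TPM with the control siRNA. It had 6.06, 6.69 and 6.72 CPM with the HOTAIR-N siRNA, against 5.80, 5.84 and 6.73 CPM with the control siRNA, and was not called (log2 fold change 0.08, adjusted p = 0.45). KCNMB1, the smooth muscle subunit, was not called either (log2 fold change 0.18, SE 0.30, adjusted p = 0.65).

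Of the cytoplasmic Kv beta subunits, KCNAB2 had 9.47, 9.40 and 7.65 CPM with the HOTAIR-N siRNA, against 5.32, 5 and 5.41 CPM with the control siRNA. It rose 1.68-fold (log2 fold change 0.75, SE 0.10, adjusted p = 3.1e-05). KCNAB1 was low, at 0.192, 0.365 and 0.319 CPM with the HOTAIR-N siRNA, against 0.672, 0.596 and 0.630 CPM with the control siRNA. KCNAB1 fell to 46.0% of control (adjusted p = 0.0036), having passed the filter through the control group alone. KCNAB3 was not called (log2 fold change 0.16, adjusted p = 0.62). KCNE4, whose product inhibits several voltage-gated channels, rose 1.70-fold (adjusted p = 0.0023). KCNIP2, which encodes KChIP2, the calcium-binding partner of Kv4 channels, rose 1.58-fold (adjusted p = 0.0042), and KCNIP3 was too low to test. KCNE2 was not called (log2 fold change 0.35, adjusted p = 0.29). In the annotation KCNAB2, KCNMB3, KCNK15 and KCNH3 share exon sequence with NPHP4, PIK3CA, RIMS4 and MCRS1 on the opposite strand. KCNJ14 shares it with GRWD1 on its own strand. Part of the reads of these channel genes could thus belong to these neighbours. GRWD1 rose, as KCNJ14 did (log2 fold change of GRWD1 0.22, adjusted p = 0.019). NPHP4 was not called, and PIK3CA, RIMS4 and MCRS1 fell.

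Noncoding or readthrough symbols made up 6 of the 102, and 2 of these were tested. KCNQ5-IT1, named as an intronic transcript of KCNQ5, had 0.961, 0.639 and 0.492 CPM with the HOTAIR-N siRNA, against 0.0841, 0.119 and 0.143 CPM with the control siRNA. Having passed the filter through the HOTAIR-N group alone, it rose 5.94-fold (log2 fold change 2.57, SE 0.39, adjusted p = 8.5e-05), while KCNQ5 itself fell. KCNH1-IT1, named as an intronic transcript of KCNH1, had 1.18, 0.974 and 1.39 CPM with the HOTAIR-N siRNA, against 0.925, 1.22 and 1.2 CPM with the control siRNA. The groups overlapped and it was not called (log2 fold change 0.09, SE 0.20, adjusted p = 0.71), while KCNH1 fell.

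At the level of transcripts, 57 of the 246 annotated for these genes were tested, 8 rose and 11 fell, where 32.0% of 32285 tested transcripts were called. The 19 calls became 11 without HOTAIR-N siRNA replicate 1, 11 without HOTAIR-N siRNA replicate 2 and 11 without control siRNA replicate 3. KCNK2 was carried by NM_014217 and NM_001017425, which fell to 67.9% and 69.4% of control (adjusted p = 0.0042 and 0.00013). Their shares of the gene were steady, with NM_014217 at 56.2 ± 1.55% with the HOTAIR-N siRNA and 56.8 ± 1.74% with the control siRNA (SD, n = 3 each). In KCNH7 the 2 annotated transcripts were both at low counts with the HOTAIR-N siRNA, and NM_173162 fell to 16.6% of control (adjusted p = 0.010).

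In KCNAB2, as in some other channel genes, the deposited transcript shares differed between the groups. NM_003636 took 28.7, 56.3 and 36.6% of the gene with the HOTAIR-N siRNA, against 0, 7.86 and 12.8% with the control siRNA. NM_001199861 took 13.7, 5.20 and 16.7% with the HOTAIR-N siRNA, against 52.7, 39.2 and 37.7% with the control siRNA. For both the groups did not overlap, as was also so for NM_002247 of KCNMA1 and, at low counts, NM_001204798 of KCNH2. How many of all transcripts do so was not counted. The counts of neither transcript passed the test (adjusted p = 0.095 for NM_003636 and 0.11 for NM_001199861), and the shares themselves were not tested. These transcripts share most of their sequence, so their estimated counts are less certain than that of the gene.

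**Figure D4:**
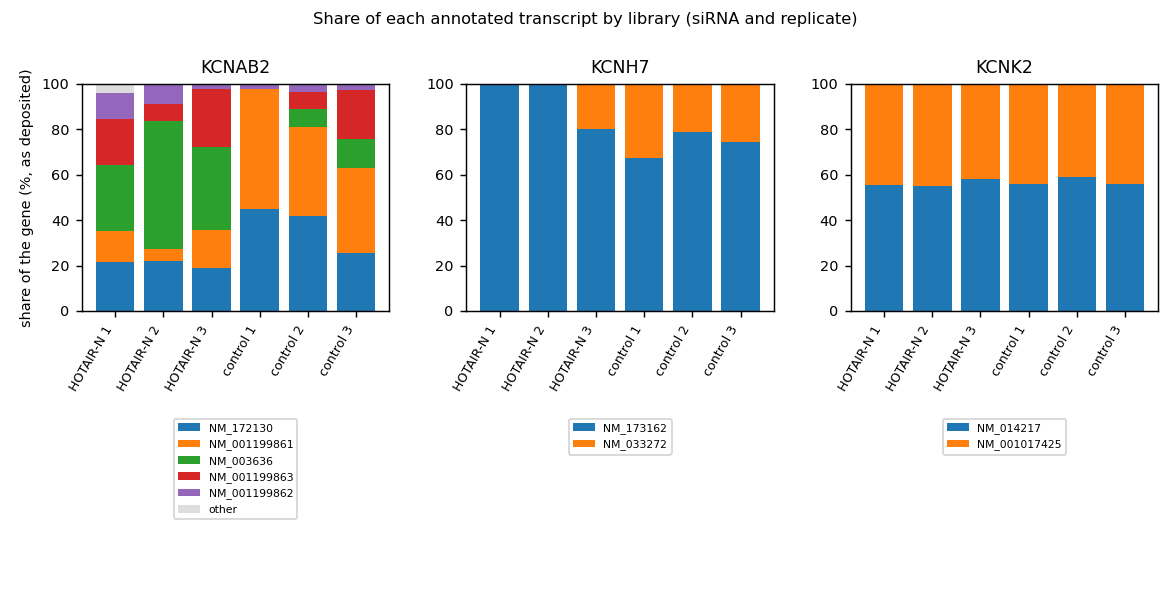
Share of each annotated transcript (percent of the gene, as deposited, vertical axis) in the 6 libraries for KCNAB2, KCNH7 and KCNK2, HOTAIR-N siRNA replicates to the left of control siRNA replicates. The bars of KCNK2 are alike in all libraries, and NM_003636 of KCNAB2 takes 28.7 to 56.3% in HOTAIR-N libraries and 0 to 12.8% in control libraries.

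The 57 genes too low to test held between 0 and 54 counts over all 6 libraries, and 16 of them held 0. Totals over the 3 HOTAIR-N libraries and the 3 control libraries follow each symbol in that order. Voltage-gated pores too low to test were KCNC1 (42 and 9), KCNH4 (12 and 8), KCNH8 (9 and 9), KCNA7 (5 and 10), KCNQ1 (2 and 9), KCNH6 (4 and 3), KCNB2 (2 and 2), KCND3 (1 and 3), KCNA10 (1 and 1), KCNC2 (0 and 2), KCNA3 (1 and 0) and KCNA6 (0 and 1), with 0 counts for KCNA1, KCNA2, KCNA4, KCNA5 and KCNQ3. The Shaker group (KCNA) was thus at or near 0 throughout. Silent modifiers in this range were KCNS2 (20 and 27), KCNS1 (14 and 16), KCNV2 (14 and 9) and KCNG2 (7 and 1), with 0 counts for KCNG4. Genes grouped as ion-activated in this range were KCNU1 (13 and 5), KCNN3 (5 and 10), KCNT2 (2 and 10) and KCNT1 (2 and 2). Among inward rectifiers they were KCNJ3 (30 and 24), KCNJ1 (3 and 12), KCNJ9 (4 and 3), KCNJ5 (3 and 2), KCNJ18 (1.32 and 2), KCNJ16 (0 and 3), KCNJ4 (1 and 2), KCNJ6 (0 and 2) and KCNJ12 (1.68 and 0), with 0 counts for KCNJ15. KCNJ3, which encodes the G protein-gated Kir3.1, had the most counts of the 57. KCNJ12 and KCNJ18 are near-identical copies whose reads could be split between them, as are KCNE1 and KCNE1B. Tandem-pore genes too low to test were KCNK7 (19 and 20), KCNK9 (24 and 13), KCNK3 (8 and 5), KCNK13 (4 and 8), KCNK12 (3 and 4) and KCNK10 (2 and 3), with 0 counts for KCNK16, KCNK17, KCNK18 and KCNK4. Auxiliary genes in this range were KCNIP3 (11 and 24), KCNE1 (5 and 2), KCNE3 (4 and 2) and KCNIP4 (1.23 and 0), with 0 counts for KCNE1B, KCNE5 and KCNIP1. The remaining symbols were KCNK4-TEX40 (11.6 and 3.87) and KCND3-IT1 (1 and 0), with 0 counts for KCNIP4-IT1 and KCNQ1DN. Apart from KCNC1 without the filter, no difference in these genes was detectable at this depth.

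Other genes of potassium handling changed in both directions, as did all tested genes, of which 36.2% rose and 34.8% fell. The first list held 24 genes, for potassium pumps, their FXYD regulators and cation-chloride cotransporters, and TMEM175. Of these 11 were tested, 4 rose, TMEM175 among them, and 2 fell, with a median log2 fold change of 0.04. The 3 with the smallest p were FXYD3, which rose 2.01-fold (adjusted p = 2.8e-08), FXYD5, which rose 1.82-fold (adjusted p = 1.8e-07), and the potassium-chloride cotransporter gene SLC12A7, which rose 1.45-fold (adjusted p = 1.2e-05). Of 18 genes whose products bind or regulate potassium channels, 13 were tested, 5 rose and 6 fell, with a median log2 fold change of 0.11. The calmodulin gene CALM3, whose product gates KCNN and KCNQ channels, fell to 50.2% of control (adjusted p = 8.8e-10). NEDD4L, a ubiquitin ligase that removes KCNQ channels from the surface, rose 1.57-fold (adjusted p = 9.3e-08). Of 33 related sodium, calcium and cyclic nucleotide-gated channel genes, 9 were tested, 4 rose and 4 fell, with a median log2 fold change of 0.01. They were led by CACNA1H, a T-type calcium channel gene, at 58.5% of control (adjusted p = 2.4e-06), and by the pacemaker channel genes HCN3, which rose 1.95-fold, and HCN2, which fell to 57.4% of control (both adjusted p = 2.5e-06).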

How the data were processed

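Per the submitters' processing notes, reads were handled with STAR 2.6.0c and RSEM 1.3.0 on hg19, and no settings are given there. Libraries were stranded and ribosomal RNA was removed, per the labels' protocols. The deposited tables of each library hold expected counts as RSEM estimates them, TPM (scaled to effective length) and, for transcripts, the percent share of the gene, per the file headers. RSEM divides reads that fit several genes or transcripts, so close copies and overlapping forms are less certain.

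Expected counts were rounded, filtered with edgeR's filterByExpr (minimum count 10, minimum total 15), scaled by TMM and tested over all genes, or all transcripts, with the quasi-likelihood test of edgeR 4.0.16 in R 4.3.3, without covariates. Adjusted p are Benjamini-Hochberg values over everything tested, called under 0.05, and a p printed without a tool comes from this test. Fold changes set the HOTAIR-N siRNA over the control siRNA, SE is the log2 fold change divided by the root of the test's F, and CPM are TMM-scaled. Steps were tested on simulated counts. The series' design text says that transfections were independent and names no separate cultures, so p-values measure the spread between transfections.

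The members and lists were chosen with earlier results of these data known. Genes called and at least 2-fold apart, and the 2 highest in TPM in each class, are given by library, and of each other list the 3 with the smallest p are named. Some genes that this rule names are not reported here, in text or figures, and remain in every count. Gene overlaps and 3′ UTRs come from GENCODE release 29 and promoters from RefSeq, both on GRCh38, and only relations and sequences were taken from them. Alternatives were other scalings, DESeq2 1.42.0, limma-voom (limma 3.58.1), other filters, a replicate block, leaving out libraries, testing against 1.2-fold and a stricter threshold.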

Additional observations from a re-analysis of the deposited data

How the results depend on the processing

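Of the 31 called channel genes, 28 kept direction and call under every one of the 17 alternatives that could be computed for the gene, and none reversed. The exceptions were KCNJ11, KCNS3 and KCNG3, the last of which had an adjusted p = 0.0502 with HOTAIR-N siRNA replicate 3 and control siRNA replicate 2 both left out. With DESeq2 KCNJ11 and KCNS3 had adjusted p of 0.10 and 0.065. Leaving out single libraries gave 29 to 34 called channel genes. A filter of 1 CPM in 3 libraries left 22 called, 12 higher and 10 lower. The other called genes were too low to be tested under it, among them KCND2, KCNN4, KCNJ2, KCNJ8, KCNAB1, KCNV1 and KCNQ5-IT1. Library totals alone moved the median log2 fold change of all genes to 0.12. Against a 1.2-fold change 6876 of all genes were called, 3564 higher and 3312 lower.

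Genes that changed sign were all uncalled. With library totals alone KCNH2 had a log2 fold change of 0.029. With single libraries left out the log2 fold changes ranged from -0.17 to 0.29 for KCNAB3, from -0.00018 to 0.16 for KCNC4, from -0.077 to 0.54 for KCNG1, from -0.0498 to 0.21 for KCNH1-IT1, from -0.28 to 0.16 for KCNH2 and from -0.29 to 0.68 for KCNN1.

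Transcript counts depended most on the processing, and the cause was not tested beyond fewer samples where libraries were left out. Of 19 called and 8 higher, leaving out single libraries gave 11 to 16 called and 2 to 6 higher. Higher transcripts numbered 13 with DESeq2, 5 with limma-voom, 4 without the filter, 5 against a 1.2-fold change and 4 with HOTAIR-N siRNA replicate 3 and control siRNA replicate 2 both left out. At an adjusted p under 0.01, 10 were called and 2 were higher. With the replicate number as a block, 30 channel genes (KCNS3 at adjusted p = 0.057) and 10 transcripts were called, 2 of them higher. Equal numbers did not pair the libraries, with correlations of -0.036, -0.21 and -0.12 between same-numbered libraries across genes, which are not independent replicates. Genes under about 1 CPM rest on few counts, and their fold changes are the least certain.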
